A study of Mus musculus with 6 samples.

Results

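The 9 genes described here make, move and buffer the acid end product of glycolysis: the lactate dehydrogenases Ldha and Ldhb, the monocarboxylate transporters Slc16a1 and Slc16a3, their partner Bsg, the carbonic anhydrases Car9 and Car12, and the bicarbonate transporters Slc4a4 and Slc4a7. They were taken by name, as every probe set that the platform table assigns to one of these symbols alone. Probe sets assigned to several symbols were left out, here and in the gene lists below. The rule gave 18 of the 45037 probe sets in the values table, for 8 of the 9 genes, out of 18193 genes named in all. Slc4a7, an electroneutral sodium bicarbonate cotransporter, had no probe set assigned to it alone in the table and is not analysed here. Of the 18 probe sets, 14 lay above the signal filter, and each of the 8 genes had at least 1 of them.

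The measurements come from HL-1, a continuously dividing mouse cell line derived from an atrial tumour that keeps part of the programme of a cardiac muscle cell. Confluent HL-1 cells were held for 8 hours in 1% oxygen (hypoxia, 3 arrays) or in 21% oxygen (normoxia, 3 arrays), and no other treatment or genetic change separates the groups in the labels. A single cell line was used, and the labels do not tell whether the replicates were grown separately, so each p-value reflects the variation between these arrays alone and that variation may be technical. Each array gave 1 MAS5 signal per probe set on a linear scale. These signals can be compared between arrays for the same probe set but not between probe sets. Signal level was used for the filter, to choose a probe set for each gene and to pick a gene to name from each list. No result below ranks a gene against another by its level, and summed signals are compared between arrays only.

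Median signals were 15.0 to 19.0 per array, and 3 arrays in a group limit how precise any value can be. All 10 markers of atrial cardiomyocytes lay above the filter, with a summed signal of 26800 to 29220 in hypoxia and 27380 to 30620 in normoxia. So did 4 of 5 smooth muscle markers (summed 12170 to 15110 and 11450 to 13340), 3 of 7 fibroblast markers (93.3 to 201.4 and 100.6 to 117.7), 2 of 6 endothelial markers (141.3 to 203.5 and 131.6 to 179.9) and 3 of 6 macrophage markers (87.2 to 120 and 68.3 to 112). In the smooth muscle sum, Acta2 contributed 8115.4 to 10571.8 in hypoxia and 8162.7 to 9609.3 in normoxia. Of all 18193 genes named, 11332 lay above the filter, so passing it does not by itself show that a cell type is present. Of 6 erythroid markers, 3 had a probe set and 0 of these passed the filter. In limma, 0 markers of any of these lists changed at an adjusted p under 0.05. Without adjustment 3 atrial, 2 smooth muscle and 1 macrophage marker had a p under 0.05, as had 1409 of all 11332 genes tested. Named after their values were seen, these were Nppa, Sln, Tagln, Cnn1 and Cd68, higher in hypoxia, and Actn2, lower. The part of other cell types in the results below was not tested.

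Lactate dehydrogenase interconverts pyruvate and lactate and regenerates the NAD+ that glycolysis needs when respiration slows. Its enzyme assembles from A and B subunits, the products of Ldha and Ldhb; the A-rich forms prevail in glycolytic tissue and the B-rich forms in heart muscle. Lactate leaves cells together with a proton through monocarboxylate transporters, of which MCT1 (Slc16a1) is widespread and MCT4 (Slc16a3) is typical of cells that export much lactate, and both need the glycoprotein basigin (Bsg) to reach the surface. Carbonic anhydrases at the cell surface and sodium bicarbonate cotransporters help to dispose of the acid. Ldha, Slc16a3 and Car9 are well known targets of the hypoxia-inducible factors (HIF), which bind DNA at a core written ACGTG or GCGTG.

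The stretches upstream of the members' gene starts show where that core occurs. RefSeq (GRCm38.p6) gave 10 starts for 8 of the 9 genes, all but Bsg. The 250 bases before each start were searched on both strands for ACGTG and GCGTG, which read CACGT and CACGC on the other strand. A CACGTG, which is also the E-box bound by other factors, carries the core on both strands and was counted as 1 match. Matches were present before 7 of the 10 starts and in 6 of the 8 genes, against 38.6% of all 32851 starts in the table. The upstream Ldha start (window shown: chr7:46845639-46845794, plus strand) and the Slc16a1 start (window shown: chr3:104638444-104638554, plus strand) had 3 matches each, a number reached by 4.87% of all starts. Slc16a3 (window chr11:120949020-120949066, plus strand) had 2 matches, and 13.7% of all starts had at least as many. Car9 (window chr4:43506988-43507025, plus strand), Ldhb (window chr6:142508059-142508103, minus strand) and the upstream Slc4a4 start (window chr5:88887121-88887165, plus strand) had 1 each, as had the downstream Ldha start. Car12, Slc4a7 and the downstream Slc4a4 start had 0. The windows from 20 bases before the first match to 20 bases after the last, or to the gene start, are shown 5′ to 3′ on the gene's strand, with the matches in capitals, to set the 2 lactate dehydrogenases and the 2 transporters side by side.
Ldha: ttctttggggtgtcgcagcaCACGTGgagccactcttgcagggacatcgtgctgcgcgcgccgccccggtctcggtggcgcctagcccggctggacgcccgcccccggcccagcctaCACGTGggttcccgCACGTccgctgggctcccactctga
Ldhb: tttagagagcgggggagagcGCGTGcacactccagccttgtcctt
Slc16a1: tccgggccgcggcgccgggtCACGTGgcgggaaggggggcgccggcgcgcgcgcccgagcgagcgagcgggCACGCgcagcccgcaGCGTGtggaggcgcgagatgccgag
Slc16a3: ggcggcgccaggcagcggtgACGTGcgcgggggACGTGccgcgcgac
Car9: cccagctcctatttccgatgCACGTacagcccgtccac
Slc4a4: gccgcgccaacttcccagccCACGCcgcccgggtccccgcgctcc
The Ldha matches begin 145, 48 and 34 bases before the start, those of Slc16a3 27 and 14 bases, and that of Car9 18 bases. A match is a string of letters, not a measured binding site, and Slc16a1, with as many matches as the upstream Ldha start, had a log2 fold change of 0.01 between the groups.

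Of the 8 member genes, Ldha rose in hypoxia and no other passed the test. This is 1 of 8 genes higher and 0 lower, beside 0.750% of all 11332 genes tested in either direction (0.662% higher and 0.0882% lower). Without adjustment, 4 of the 8 had a p under 0.05 (Ldha, Bsg, Car12 and Slc4a4, all higher), as had 1409 of the 11332 genes. Hypoxia was compared with normoxia in limma over all 22518 probe sets above the filter, and a change was called at a Benjamini-Hochberg adjusted p under 0.05. A gene is represented by its brightest probe set above the filter. By that probe set 7 of the 8 genes had a log2 fold change above 0, beside 5032 of the 11332 genes tested. The median was 0.73 for the 8 genes and -0.04 over all genes tested. In 4 of the 8 genes (Ldha, Bsg, Car12 and Slc4a4) all hypoxia arrays lay above all normoxia arrays, which held for 8.16% of all genes tested. In 0 of the 8 they all lay below, which held for 9.91%. The members were chosen with earlier results of these data known, so their shares, here and by probe set, are description only.

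**Figure D1:**
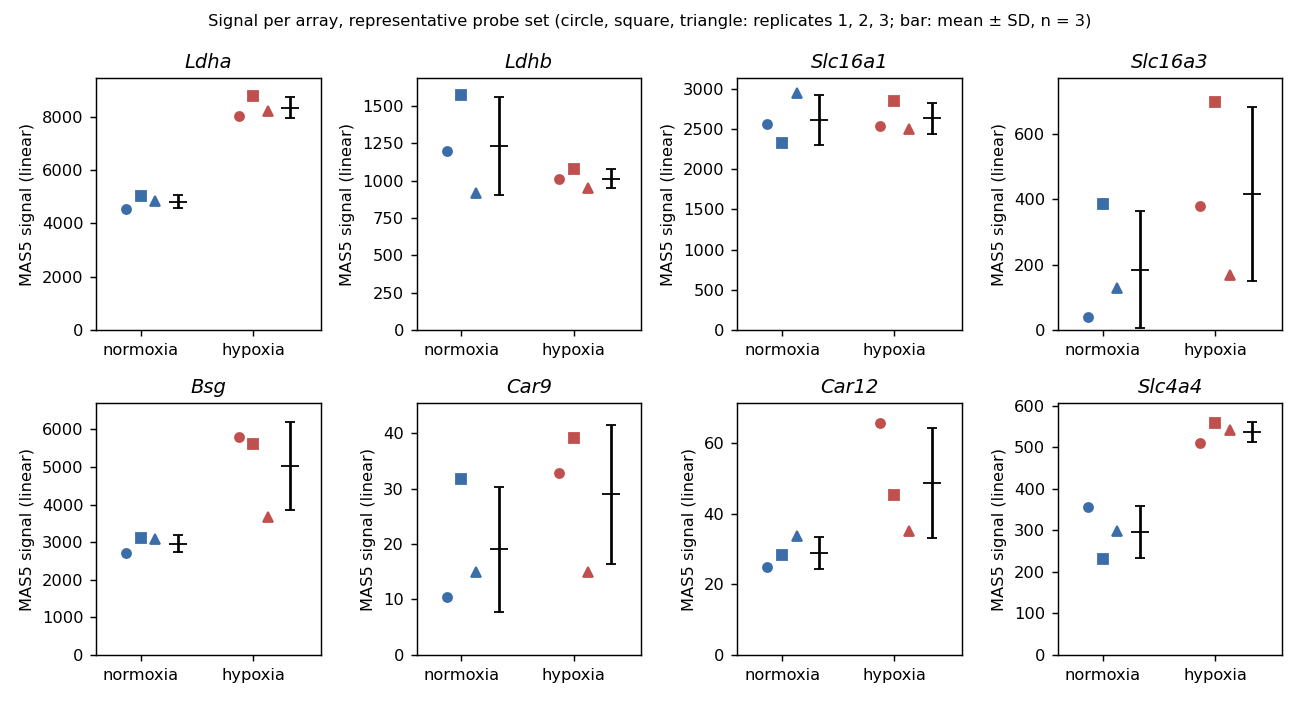
MAS5 signal (linear axis from 0) of the representative probe set of each of the 8 measured members on the 3 normoxia (blue) and 3 hypoxia (red) arrays; circles, squares and triangles are replicates 1, 2 and 3, and the black bar is the mean ± SD. Ldha separates cleanly, from 4549.9 to 5027.4 in normoxia and from 8024.5 to 8774.2 in hypoxia, Bsg, Car12 and Slc4a4 separate by less, and the groups overlap for Ldhb, Slc16a1, Slc16a3 and Car9.

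Ldha, the A subunit, gave signals of 8024.5, 8774.2 and 8206.9 on the hypoxia arrays and of 4549.9, 5027.4 and 4836 on the normoxia arrays. The groups stood well apart, and the gap between them was several times the spread within either. The log2 fold change was 0.80 (SE 0.08, 95% interval 0.61 to 0.98, limma adjusted p = 0.00213), a fold of 1.53 to 1.97. Ldha rests on a single probe set. It passed in all 6 fits with 1 array left out (adjusted p from 0.00428 to 0.0221) and was lost only when the variance was not allowed to follow the signal (adjusted p = 0.134, range over all 16 alternatives 0.000481 to 0.134). In that fit 16 probe sets of the whole table were called higher and 2 lower, against 120 and 17. The highest signals of any probe set on hypoxia replicates 1, 2 and 3 were 9370, 10223.6 and 11641.6. Ldha thus lay in the upper part of the scale there, and whether signals that high stay proportional to the RNA was not tested.

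Ldhb, the B subunit of heart-type lactate dehydrogenase, was measured by 4 probe sets above the filter, and all 4 had a log2 fold change below 0. The representative probe set, whose name ending marks possible cross-hybridization, had signals of 1010.6, 1081.3 and 951.1 in hypoxia and of 1201.6, 1571.4 and 919.7 in normoxia. The highest and the lowest of these 6 values were both normoxia arrays, so the groups overlapped. Its log2 fold change was -0.25 (SE 0.18, interval -0.65 to 0.15, limma adjusted p = 0.652). The other 3 probe sets gave log2 fold changes of -0.28, -0.28 and -0.21 (limma adjusted p = 0.538, 0.484 and 0.65), and the mean of all 4 gave -0.26 (adjusted p = 0.471). On 1 of these 3 all hypoxia arrays (855.3 to 985.5) lay below all normoxia arrays (1010.4 to 1293.8). Its name has the same ending as that of the representative probe set. On the others, without that ending, the groups overlapped.

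The change of Ldha relative to Ldhb was taken within each array, as the log2 signal of Ldha minus that of Ldhb. Only the representative probe set of each gene was used. The difference was 2.99, 3.02 and 3.11 in hypoxia and 1.92, 1.68 and 2.40 in normoxia. The groups did not overlap, and the 3 hypoxia arrays were close to each other (SD 0.06) while the normoxia arrays spread more (SD 0.36). In normoxia the Ldhb probe set deviated from its group mean by 0.39 on replicate 2 and -0.39 on replicate 3. Ldha stayed between -0.08 and 0.07 there. The shift of 1.04 on the log2 scale corresponds to 2.06-fold (exact permutation test, two-sided, p = 0.1, which is the smallest p that 3 against 3 can give, and 0.2 adjusted over the 2 differences tested). The level of this difference depends on the probe sets, and only its shift between groups is a measurement of unequal change.

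**Figure D2:**
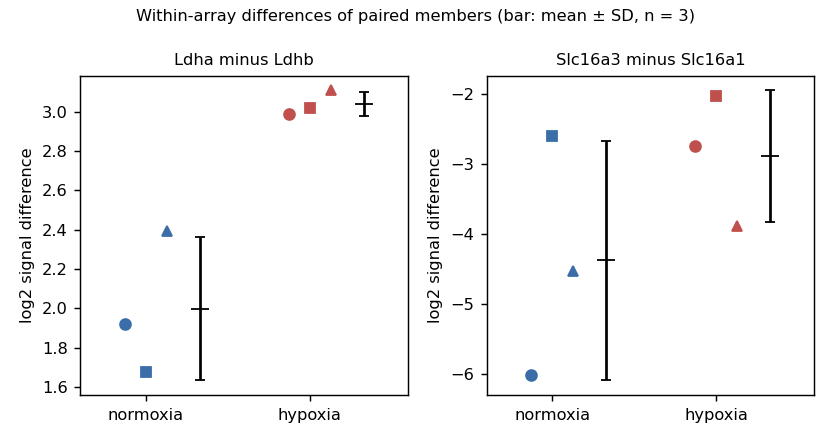
Log2 signal difference between 2 members on the same array, Ldha minus Ldhb (left) and Slc16a3 minus Slc16a1 (right), for 3 normoxia (blue) and 3 hypoxia (red) arrays; symbols are replicates 1, 2 and 3 (circle, square, triangle) and bars are mean ± SD. The left panel shows 3 hypoxia arrays near 3.04 above normoxia arrays of 1.68 to 2.40, and the right panel shows overlapping groups.

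Among the lactate carriers no transcript passed. Slc16a1, the transporter MCT1, gave 2542.2, 2855.1 and 2501.7 in hypoxia and 2558.9, 2333.6 and 2950.4 in normoxia. The groups interleaved throughout. Its log2 fold change was 0.01 (SE 0.11, limma adjusted p = 0.973), with a sign that flipped after quantile normalization (-0.041) and cyclic loess (-0.062), and the interval from -0.24 to 0.27 covers folds of 0.847 to 1.21. A second Slc16a1 probe set lay under the filter, with signals of 2.4, 1.1 and 0.8 in hypoxia and 3.2, 13 and 13.9 in normoxia, near the bottom of the scale, and was not tested in the main comparison.

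Slc16a3, the transporter MCT4, was the most variable member. Its signals were 378.4, 697.8 and 168.8 in hypoxia and 39.8, 385 and 128.3 in normoxia. The lowest normoxia array was far below the rest, but normoxia replicate 2 exceeded 2 of the 3 hypoxia arrays. The log2 fold change was 1.50, the largest estimate among the members, with an SE of 0.73 and an interval from -0.13 to 3.13 (limma adjusted p = 0.501), so that folds between 0.914 and 8.77 are compatible with these arrays. Leaving out 1 array moved it between 0.67 (without normoxia replicate 1) and 2.31 (without normoxia replicate 2), and it passed in 0 of 16 alternatives. The shift of Slc16a3 relative to Slc16a1 within arrays was 1.49 (exact permutation test, two-sided, p = 0.3, the same after adjustment).

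Bsg, the surface chaperone of both transporters, gave 5793.8, 5613.3 and 3682.9 in hypoxia and 2710.9, 3107.5 and 3074.7 in normoxia. All hypoxia arrays lay above all normoxia arrays, but hypoxia replicate 3 stood nearer to the normoxia arrays than to the other 2 of its own group. The log2 fold change was 0.74 (SE 0.16, interval 0.37 to 1.10) and did not pass over all probe sets (limma adjusted p = 0.0999). It passed without hypoxia replicate 3 (log2 fold change 0.95, limma adjusted p = 0.00316) and with array weights (0.0131). The alternatives together spanned 0.000871 to 0.373.

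Both surface carbonic anhydrases were dim, not far above the filter at a geometric mean of 14.1. Car9, a classic hypoxia marker in tumours, had signals of 32.9, 39.1 and 15 in hypoxia and 10.5, 31.8 and 14.9 in normoxia. In each group a low array lay near or below 15, so the ranges largely overlapped. Its log2 fold change was 0.65 (SE 0.51, interval -0.50 to 1.80, limma adjusted p = 0.678). Car12, another membrane-bound carbonic anhydrase, had 65.8, 45.3 and 35.2 in hypoxia and 24.8, 28.3 and 33.7 in normoxia. The groups did not overlap, by a margin of 35.2 against 33.7. Its log2 fold change was 0.72 (SE 0.29, interval 0.06 to 1.38, limma adjusted p = 0.415). The other 2 Car12 probe sets lay under the filter with signals of at most 12.1 on any array.

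Slc4a4, the electrogenic sodium bicarbonate cotransporter NBCe1, carries bicarbonate, and so base, into the cell. Its representative probe set gave 510, 557.2 and 541 in hypoxia and 356.9, 231.8 and 298.8 in normoxia. The hypoxia arrays were tightly grouped (SD 24.0) above the more scattered normoxia arrays (SD 62.6). The log2 fold change was 0.88 (SE 0.17, interval 0.50 to 1.26), which missed the threshold over all probe sets (limma adjusted p = 0.0613). It passed without normoxia replicate 1 (adjusted p = 0.0237), after centring each array on its median (0.0467) and with array weights (0.016). The alternatives together spanned 0.0109 to 0.257.

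Another 3 Slc4a4 probe sets lay above the filter, and their log2 fold changes were 0.51, 0.70 and 0.80 (limma adjusted p = 0.289, 0.283 and 0.289). On 2 of them the hypoxia arrays lay above all normoxia arrays (264.1 to 296.4 against 170.8 to 239, and 92.1 to 157.9 against 66 to 82.4). On the other the groups met at 86.6. The mean of all 4 probe sets gave 0.72 (SE 0.16, limma adjusted p = 0.0911). The last probe set lay under the filter, at 7.7 to 14.2 in both groups. Probe sets of a gene are not independent replicates, since they read the same RNA on the same arrays.

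**Figure D3:**
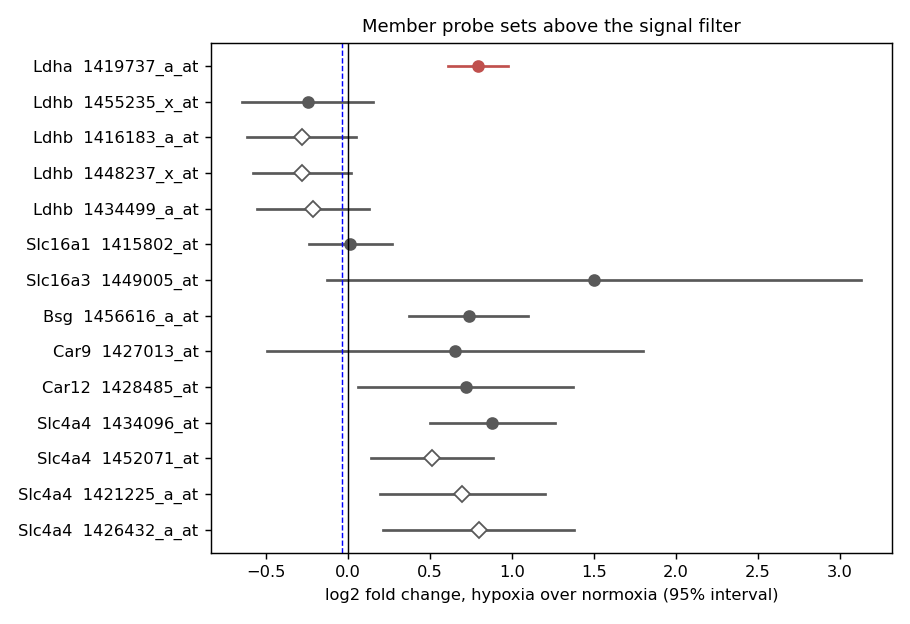
Log2 fold change of hypoxia over normoxia with its 95% interval for the 14 member probe sets above the filter; filled circles are representative probe sets, open diamonds the other probe sets of the gene, red marks an adjusted p under 0.05, and the dashed blue line is the median of all genes tested (-0.04). Ldha is the only red point (0.80), all 4 Ldhb estimates lie below 0, all 4 Slc4a4 estimates lie between 0.51 and 0.88, and Slc16a3 has the widest interval.

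At the level of probe sets, 1 of the 14 members above the filter was called higher and 0 lower, beside 0.533% and 0.0755% of all probe sets tested. The hypoxia arrays lay above all normoxia arrays for 6 of the 14, beside 7.48%, and below them for 1 of the 14, beside 9.06%. Of these 14, 4 belong to Ldhb and 4 to Slc4a4.

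The spread within groups had a shape of its own. For Slc16a3, Bsg, Car9 and Car12, hypoxia replicate 3 was the lowest hypoxia array and normoxia replicate 1 the lowest normoxia array. The same 2 arrays were the lowest of their groups for 23.1% of all genes tested, and they had the lowest mean correlation with their own group over all probe sets above the filter (0.955 each, against 0.960 to 0.964). Their deviations from the group means correlated at 0.319 across all probe sets above the filter, the highest of the 9 pairings of a hypoxia with a normoxia array. In Slc16a3 they deviated from their group means by -1.07 and -1.65 on the log2 scale, in Car9 by -0.84 and -0.70. Ldha deviated by no more than 0.08 in either direction on any array. Slc4a4 did not share the low values, with deviations of 0.01 on hypoxia replicate 3 and 0.29 on normoxia replicate 1. With both arrays left out, an alternative chosen after seeing the data, 3 of the 8 member genes were called higher. These were Ldha, Bsg and Slc4a4 (limma adjusted p = 0.00197, 0.000871 and 0.0109). Calls rose over the whole table as well, to 305 probe sets higher and 134 lower, against 120 and 17 in the main fit. Slc16a3 did not pass there (log2 fold change 1.21, adjusted p = 0.184). Whether these arrays differ in RNA quality, handling or biology was not tested.

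**Figure D4:**
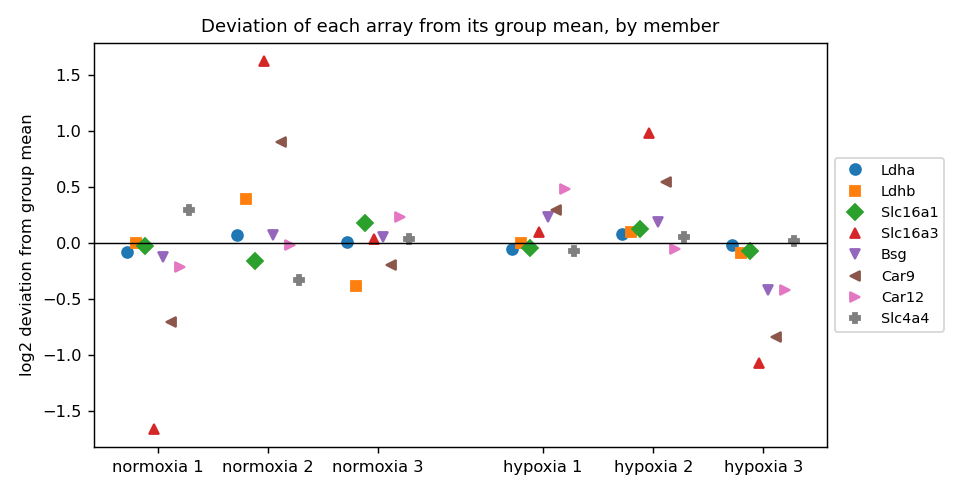
Deviation of each array from its group mean on the log2 scale for the representative probe set of the 8 members (symbols and colours by gene). Slc16a3 ranges from -1.65 on normoxia replicate 1 to 1.62 on normoxia replicate 2, Ldha stays within 0.08 of 0, and Slc16a3, Bsg, Car9 and Car12 are all below 0 on hypoxia replicate 3 and normoxia replicate 1.

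Outside the members, 0 genes of the 7 pathway lists were called in limma. In the lactate dehydrogenase family, the other 3 genes were named after their values were seen. Ldhc, the testis form, and Ldhal6b lay under the filter, and Ldhd, the D-lactate dehydrogenase of mitochondria, had a log2 fold change of 0.11 (17.3 ± 2.75 against 16.8 ± 7.04, SD, n = 3 arrays in each group, limma adjusted p = 0.945). Of 21 genes for monocarboxylate and pyruvate carriers and their partners, 8 lay above the filter, 11 under it and 2 had no probe set. None of the 8 was called, and their median log2 fold change was 0.07. Besides Bsg, Slc16a4, an orphan carrier of the same family, had an unadjusted p under 0.05 in limma. It was named after its values were seen, with 41.4, 36.8 and 41.9 in hypoxia against 23.3, 18.2 and 19.4 in normoxia (log2 fold change 0.99, adjusted p = 0.208). Mpc1, a subunit of the carrier that brings pyruvate into mitochondria, also named after its values were seen, was at -0.20 on the same scale (adjusted p = 0.536).

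Among 16 carbonic anhydrases, 7 lay above the filter and 0 were called in limma, with a median log2 fold change of -0.19 and 2 unadjusted p under 0.05, those of Car12 and Car2. Car14, a membrane-bound form found in muscle, had 526 ± 81.4 in hypoxia and 490 ± 48.8 in normoxia (log2 fold change 0.10, adjusted p = 0.856). Car2, the abundant cytosolic form, named after its values were seen, had a log2 fold change below 0, with 167.5, 185.6 and 213 in hypoxia all below 233.5, 228.9 and 263.2 in normoxia (-0.36, adjusted p = 0.444).

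Of 15 bicarbonate transporters, 7 lay above the filter and 0 were called, with a median of -0.15 and 2 unadjusted p under 0.05 in limma. These were Slc4a4 and, in the opposite direction, Slc4a3, the chloride-bicarbonate exchanger AE3 of heart and brain, which lets base out of the cell and was named after its values were seen. Slc4a3 had 182.9, 221.9 and 140.3 in hypoxia and 198.8, 371.6 and 374 in normoxia. The groups overlapped, since hypoxia replicate 2 exceeded normoxia replicate 1 (log2 fold change -0.76, limma adjusted p = 0.334). With hypoxia replicate 3 and normoxia replicate 1 left out, an alternative chosen after seeing the data, these values were -0.89 and 0.0231. The second Slc4a3 probe set, much dimmer and close to the filter, was not called either. Its log2 fold change was -1.09 (interval -2.17 to -0.0035, limma adjusted p = 0.457). The hypoxia arrays (6.2 to 19.7) all lay below the normoxia arrays (21.8 to 30.4), as held for 9.06% of all probe sets tested. Over the alternatives, the limma adjusted p of the first probe set lay between 0.0231 and 0.73. It was 0.0536 or more in every alternative but the one with both arrays left out.

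Sodium-proton exchangers and their regulators had 5 of 16 genes above the filter and 0 called (median 0.01, 1 unadjusted p under 0.05 in limma), and the scaffold Slc9a3r1 had 201 ± 38.4 against 196 ± 25.2. The vacuolar proton ATPase, which acidifies endosomes and lysosomes, had 18 of 25 genes above the filter and 0 called. Of the 18, 14 had a log2 fold change above 0 (median 0.14), beside 5032 of all 11332 genes tested. In limma 2 of the 18 had an unadjusted p under 0.05, beside 1409 of the 11332. The subunit Atp6v0e had 2268 ± 157 against 2043 ± 145 (log2 fold change 0.15, adjusted p = 0.638). The list of acid and lactate sensing had 2 of 11 genes above the filter and 0 called, with 0 unadjusted p under 0.05. Hcar1, the lactate receptor, named after its values were seen, lay under it, and Ndrg3, a protein stabilised by lactate, had 84.0 ± 17.9 against 104 ± 3.37 (log2 fold change -0.33, adjusted p = 0.582).

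**Figure D5:**
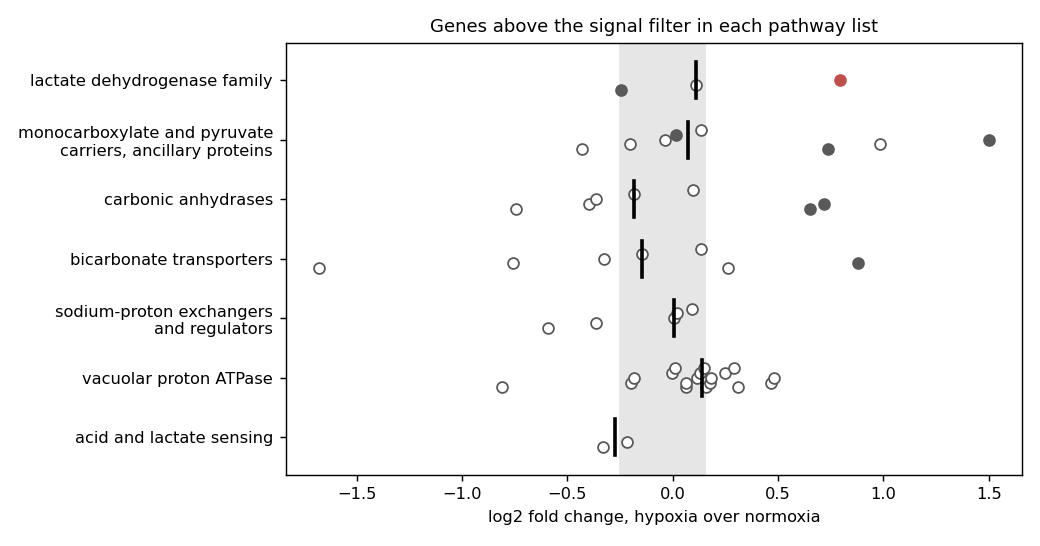
Log2 fold change of hypoxia over normoxia for every gene above the filter in each of 7 pathway lists (filled: members; open: other genes; red: adjusted p under 0.05); thick black lines are list medians and the grey band is the middle 50% of all genes tested. Ldha is the only gene called, the list medians lie between -0.28 and 0.14, and the members Slc16a3, Bsg, Car9, Car12 and Slc4a4 lie to the right of the band.

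The genes whose profile over the 6 arrays was most like that of Ldha were Adm, a vasodilator peptide, Cep162, a centrosomal protein, Tpi1, a glycolytic enzyme, Mcam, a cell adhesion molecule, and Celf2, an RNA-binding protein. Likeness was the root mean square difference of log2 signals, each gene centred on its own mean, and lay between 0.07 and 0.10 for these 5. Tpi1, for example, gave 7093.1, 7595.3 and 6838.2 in hypoxia and 3466.2, 3813.4 and 3878.8 in normoxia. Among the members, Bsg came nearest to Ldha with 0.21 (145 genes were closer), followed by Slc4a4 with 0.23 (209 closer) and Car12 with 0.30 (766 closer). Slc16a1, Ldhb, Car9 and Slc16a3 were farther, at 0.41, 0.56, 0.60 and 1.12. This measure ranks genes by size of change and spread together, over 6 arrays in 2 groups.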

How the data were processed

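RNA of 6 HL-1 samples was hybridised to 1-colour Affymetrix mouse arrays. The authors' deposited values are linear intensity values, 1 per probe set and array, made with MAS5 per the submitters' processing notes; no version or setting of it is named there. Trimmed means (2% at each end) were 99.5 on all arrays, so no further scaling was applied, and 0 of 15 array pairs were identical. For testing, 10 values of 0 were set to 0.1, values were log2 transformed, and probe sets with a mean log2 above the median of all (geometric mean signal 14.1) were kept. Hypoxia was compared with normoxia in limma 3.58.1 under R 4.3.3 (lmFit, eBayes with trend, no covariates, two-sided). Differences between members were tested by exact permutation. The procedure was tested on simulated data with independent noise on each array, which does not cover deviations shared between arrays.

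Names came from a platform annotation; 34945 probe sets had 1 symbol, 932 several and 9160 none, and only the first were used for genes. Gene IDs looked up in RefSeq GRCm38.p6 changed 0 symbols, and 204 of these probe sets had no match. No build belongs to the array values.

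The members and lists were chosen with earlier results of these data known. Named are all members, up to 4 called genes and, to have a gene from every list, that with the highest representative signal, and the 5 genes most like Ldha; others are marked. The alternatives were quantile normalization, median centring, cyclic loess, no filter, a filter at the 75th percentile, no trend, array weights, adding 2.9 before the log (the 20th percentile of signals), the replicate block, the mean of a gene's probe sets, and arrays left out.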

Additional observations from a re-analysis of the deposited data

How the results depend on the processing

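The log2 fold change of Ldha stayed between 0.68 and 0.91 over 16 alternatives and passed in 15 of them. The count of member genes called higher, 1 as reported, was 0 without the trend in eBayes, 2 after median centring, 3 with array weights and 3 with hypoxia replicate 3 and normoxia replicate 1 both left out; leaving out 1 array gave 1 to 2. For member probe sets the same settings gave 0, 2, 4 and 4, and leaving out 1 array 1 to 2. Member genes and probe sets called lower were 0 under all 16 settings run for them. Over the whole table, 120 probe sets were higher and 17 lower; without the trend 16 and 2, with array weights 312 and 125, with both arrays left out 305 and 134, and with 1 array left out 37 to 163 and 1 to 37. Median centring gave 175 higher and 8 lower. It moved the median of all probe sets by 0.11 on the log2 scale. Slc16a1 reversed after quantile normalization (-0.041), cyclic loess (-0.062), array weights (-0.050) and with 1 array left out (from -0.064 to 0.11), never passing. The difference Ldha minus Ldhb stayed between 0.88 and 1.24 and that of Slc16a3 minus Slc16a1 between 0.67 and 2.38. The cause of these changes was not tested. Deviations of samples with the same replicate number correlated at -0.08, 0.21 and -0.14, with 0.319 for hypoxia replicate 3 and normoxia replicate 1. Being deviations from means of 3 arrays, they cannot decide whether the numbers pair the samples. With the replicate block 100 probe sets were higher and 5 lower, 1 member gene was higher and no member's call changed. With 3 arrays in a group, a change such as that of Slc16a3 (SE 0.73, the largest among the members) could not be told from 0.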
